A study of Mus musculus with 16 samples.

Results

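The 42 genes described here are the organic ion transporters of the mouse kidney count table: 25 genes named Slc22a, 15 named Slco and 2 named Slc47a, taken by their symbols out of 52338 genes. Slc22 genes encode the organic anion, organic cation and carnitine transporters, Slco genes the organic anion transporting polypeptides, and Slc47 genes the proton-coupled exporters of organic cations. Kidneys were collected on day 15 from C57BL6 mice in 4 groups of 4 libraries each, and every group, vehicle controls included, was on a high-fat diet. FAN time-restricted mice had received FAN and ate within a restricted time. FAN ad libitum mice had received FAN and ate freely. Vehicle time-restricted and vehicle ad libitum mice had received vehicle with the same 2 feeding regimens. The labels do not spell out FAN; the column names of the table carry the word folic. Each library is whole kidney tissue, so fewer cells of a type and less RNA per cell cannot be told apart in any value below. The labels list separate samples without stating more about the animals, so p-values measure the spread between these samples.

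In the proximal tubule, organic anions such as drugs, toxins and metabolic waste are taken from blood through the basolateral membrane by SLC22 exchangers and leave through the apical membrane. Organic cations enter by the basolateral organic cation transporters and leave by MATE1, the Slc47a1 product. Other members reclaim solutes from the filtrate, among them URAT1 (Slc22a12) for urate and OCTN2 (Slc22a5) for carnitine, and a rodent-specific expansion of Slc22 genes sits together on mouse chromosome 19. OATPs carry larger amphipathic anions such as steroid conjugates, thyroid hormones and prostaglandins.

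Of the 42 members, 34 had enough counts to be tested among 17731 genes, and 8 had not. Slco6c1 and Slco6d1, which are testis genes, had 0 counts in all 16 libraries, where 3 counts would be 0.0883 to 0.241 CPM (counts scaled to library size). Slc22a16 had 1 count in all, Slc22a20 and Slco6b1 had 2 each, Slco1b2 of the liver had 29, Slco1c1 of the brain barriers had 37 and Slco1a5 had 48. Total counts per library ran from 12450812 to 33976660. The share of counts on mitochondrial transcripts was 24.91 ± 2.40% in FAN time-restricted, 10.29 ± 3.83% in FAN ad libitum, 19.79 ± 1.35% in vehicle time-restricted and 20.33 ± 2.32% in vehicle ad libitum libraries (SD, n = 4 each). The column names also carry a number after the letter S. It is below 150 in 7 libraries of all 4 groups and above 150 in 9 libraries, where FAN and vehicle libraries have separate ranges, so that the range and the treatment cannot be told apart there. All CPM below are scaled by the trimmed mean of M values (TMM), log2 changes of single genes stand with the standard error (SE) of the fit, falls and interactions included, and values per library follow the numbers 6, 10, 11, 12 in FAN time-restricted, 6, 7, 10, 12 in FAN ad libitum and 1 to 4 in each vehicle group.

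The kidneys of FAN mice held less RNA of these transporters, most so under ad libitum feeding. The 42 members together averaged 4635 ± 485.6 CPM in FAN time-restricted, 1600 ± 337 CPM in FAN ad libitum, 8520 ± 613.7 CPM in vehicle time-restricted and 7453 ± 578.1 CPM in vehicle ad libitum libraries. Under ad libitum feeding 26 of 34 tested members fell with FAN, 4 rose and 4 did not pass (edgeR's quasi-likelihood test, adjusted p under 0.05 over all genes). Of all 17731 genes, 28.6% fell, 32.1% rose and 60.7% were called either way in that comparison. These counts include Slco5a1, which passed the filter on low counts through FAN libraries, and Slc22a27, which passed it through vehicle libraries, so that both had to differ. The falls also include Slc47a2, whose FAN libraries alone would not have passed that filter. The median log2 change was -2.003 over the tested members and 0.06 over all genes. Under time-restricted feeding 19 members fell, 3 rose and 12 did not pass, where 19.0% of all genes fell, 24.5% rose and 43.5% were called. There the median was -0.71 over the tested members and 0.05 over all genes. The 2 comparisons share no library but come from 1 fit with a shared spread per gene. In both, 18 members fell, and the share of all genes that did so is not given here. FAN and vehicle libraries did not overlap for 29 members ad libitum, 25 lower and 4 higher, where 25.9% of all genes were lower, 29.0% higher and 54.9% either. Under time restriction 17 members were lower and 3 higher without overlap, where 17.9% of all genes were lower, 22.4% higher and 40.3% either. Above an S number of 150, 18 members were called under time-restricted feeding, 15 lower and 3 higher, where 5236 of 17692 genes were called. Below 150 FAN time-restricted has 1 library that is assumed to vary like the others. Fewer members, and fewer of all genes, were called there than over all libraries.

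Within FAN mice, time-restricted kidneys had 22 members higher and 1 lower than ad libitum kidneys, with 11 not passed, where 17.9% of all genes rose, 13.9% fell and 31.8% were called. Without overlap, 19 members were higher and 1 lower, where 15.7% of all genes were higher, 12.3% lower and 28.0% either. The lower member called was Slco2a1, whose groups overlapped. The lower member without overlap was Slc22a15, which did not pass, at log2 -0.67 ± 0.26 (adjusted p = 0.0593). It passed under some alternatives, among them DESeq2 (adjusted p = 0.0255). The median log2 difference was 1.36 over the tested members and -0.02 over all genes. Within vehicle mice 0 of 34 members were called, as were 0% of all genes. At an unadjusted p under 0.05 that comparison held 2 members, Slc22a5 and Slc22a7, and 1143 genes, or 6.45%. DESeq2 also called 0 members there and 57 genes. The FAN effect itself differed between the feeding regimens for 20 members, each with a higher FAN to vehicle ratio under time restriction, and 14 did not pass; 7.76% of all genes were called in that direction, 1.40% in the other and 9.16% in either. This interaction had a median of 1.28 over the tested members and 0.02 over all genes. Above an S number of 150 it was called for 15 members, all positive, where 905 of 17692 genes were called, 92.2% of them positive. Below 150, where FAN time-restricted has 1 library, fewer members but more of all genes were called than over all libraries. The interaction of Slco2a1 was negative there, at log2 -1.27. Slc22a18, Slc22a22, Slc22a28 and Slc22a30 passed on both sides. The comparisons within FAN and the interaction share libraries with those above. Without any composition correction, scaling by total counts alone moved the median of all genes to 0.76 for FAN under ad libitum feeding, -0.67 for feeding in FAN and -0.57 for the interaction. Members called were then 23 down and 4 up, 18 up and 8 down, and 13 up and 3 down in these comparisons. Of 17731 genes, 12893, 11502 and 6631 were called in the same order, with 83.9%, 8.61% and 7.6% of the called genes higher.

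**Figure D1:**
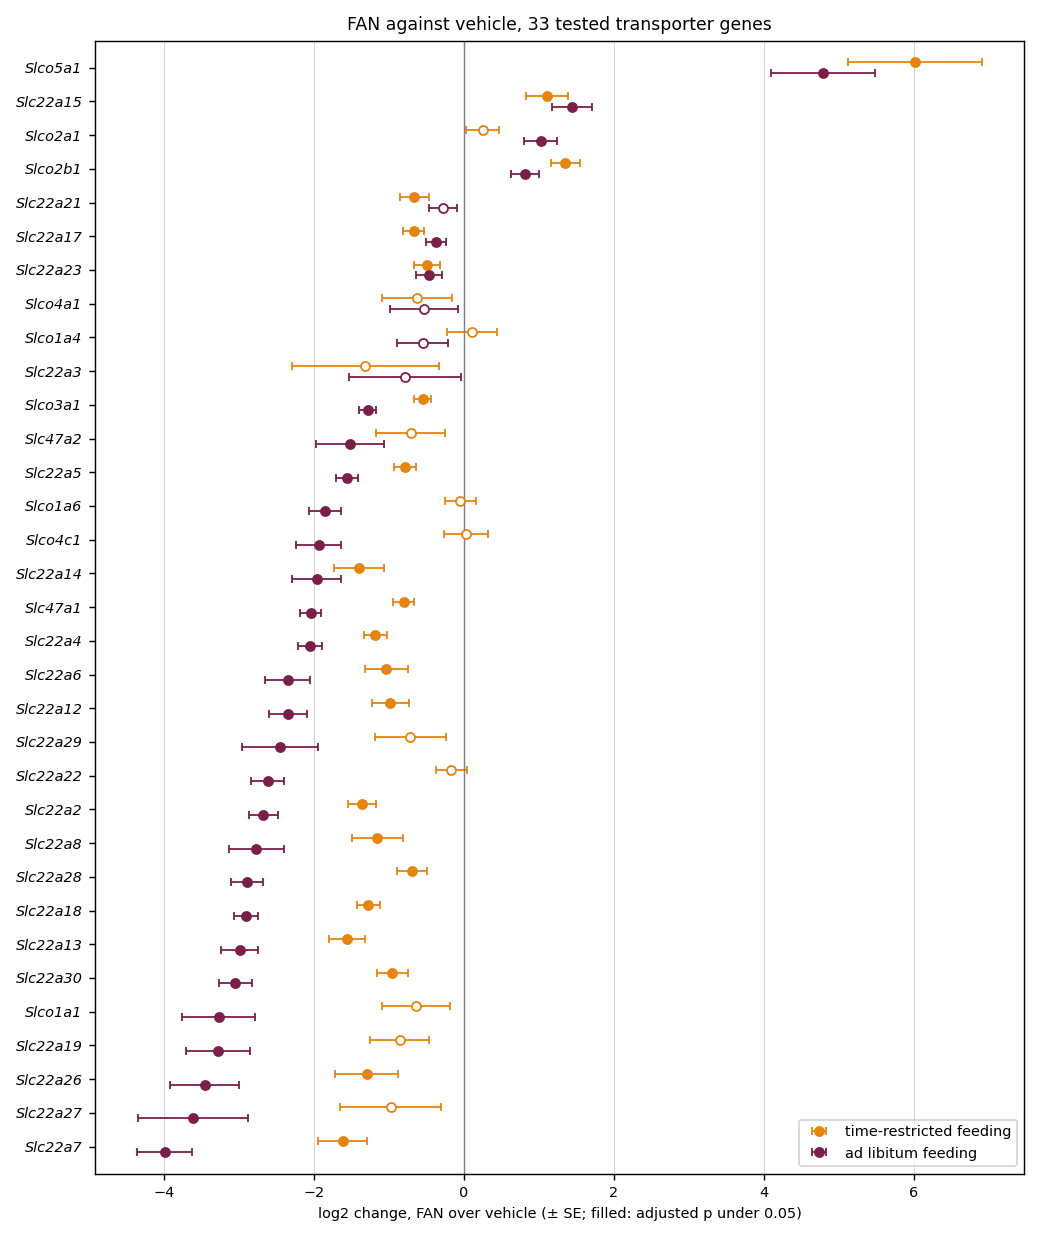
Log2 change of 33 of the 34 tested members, FAN over vehicle, under time-restricted feeding (orange) and ad libitum feeding (purple), with standard errors; filled points passed an adjusted p of 0.05. Most ad libitum points lie left of 0 and further left than the time-restricted point of the same gene, down to -3.99 for Slc22a7, and 4 genes at the top lie to the right.

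Markers of cell types moved in the same comparisons, whose shares of all genes called are given above. Of 12 proximal tubule markers, 10 fell and 0 rose with FAN under ad libitum feeding, 8 fell under time restriction, and 10 were higher in FAN time-restricted than in FAN ad libitum kidneys. Their summed level ran from 50884 to 74234 CPM in FAN time-restricted, 8692 to 14632 in FAN ad libitum, 83115 to 87180 in vehicle time-restricted and 67478 to 88210 in vehicle ad libitum libraries, and no marker was at 0 throughout a group. All 8 macrophage markers rose under ad libitum feeding, to sums of 832.1 to 1675 CPM in FAN time-restricted and 1711 to 2680 in FAN ad libitum libraries, against 128.8 to 186.5 in vehicle time-restricted and 139.3 to 262.1 in vehicle ad libitum libraries. All 6 fibroblast and pericyte markers rose as well, as did all 5 markers of tubule injury, 2 of 4 podocyte and 3 of 7 endothelial markers. Of 6 collecting duct markers 4 fell, all 5 erythrocyte markers fell, and 1 of 6 markers of the thick ascending limb and distal tubule fell and 5 did not pass. The part of these shifts in the transporter changes was not tested.

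Per kilobase of exon, URAT1 was the highest member in vehicle ad libitum kidneys, at 349.2 ± 35.0 CPM per kb (SD, n = 4). Slc47a1 followed at 298.4 ± 27.7, Slc22a18 at 292.3 ± 24.2, Slc22a6 at 275.6 ± 41.0 and Slc22a2 at 260.2 ± 34 CPM per kb, and neighbours in this order did not differ beyond their spread. Slc22a8, at 168.5 ± 38.7 CPM per kb, lay below the spread of those 5. In FAN ad libitum kidneys Slc47a1 led at 72.33 ± 13.2 CPM per kb, beside Slc22a12 at 68.39 ± 31.4 and Slc22a6 at 54.06 ± 31.7. All further levels are CPM without length correction.

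The main basolateral organic anion exchangers of the proximal tubule fell with FAN in both regimens. Slc22a6 (OAT1, chr19:8618039-8628299 on GRCm38) takes up p-aminohippurate and many drugs. It was at 577.3, 599.6, 702.8 and 713.5 CPM in FAN time-restricted and 379.6, 248.2, 105.9 and 127.6 CPM in FAN ad libitum libraries. Vehicle libraries had 1611, 1324, 1240 and 1153 CPM under time restriction and 1003, 1052, 996.9 and 1340 CPM ad libitum. FAN libraries lay below all vehicle libraries of the same regimen, and all 4 FAN time-restricted libraries lay above all FAN ad libitum ones. The FAN change was log2 -1.04 ± 0.29 (adjusted p = 0.00703) under time restriction and log2 -2.35 ± 0.30 (adjusted p = 2.33e-06) ad libitum. Slc22a8 (OAT3, chr19:8591254-8611835), which shares many substrates with OAT1, was at 187.8, 282.4, 419.3 and 333.3 CPM in FAN time-restricted and 167.4, 104, 78.65 and 36.49 CPM in FAN ad libitum libraries. It reached 768.9, 645.2, 818.6 and 489.3 CPM in vehicle time-restricted and 835.5, 516.7, 549.8 and 732.6 CPM in vehicle ad libitum libraries. It fell by 1.15 ± 0.34 (adjusted p = 0.0123) under time restriction and 2.77 ± 0.36 (adjusted p = 4.95e-06) ad libitum, again without overlap.

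For both genes the difference between feeding regimens varied with the S number. In FAN ad libitum kidneys, libraries 6 and 7, below 150, had 379.6 and 248.2 CPM of Slc22a6 and libraries 10 and 12, above it, had 105.9 and 127.6. Time-restricted over ad libitum feeding in FAN mice was log2 1.59 ± 0.29 (adjusted p = 0.000515) for Slc22a6 and log2 1.66 ± 0.35 (adjusted p = 0.00187) for Slc22a8 over all libraries. Below 150 the log2 difference was 0.85 for Slc22a6 (adjusted p = 0.0537) and 0.44 for Slc22a8 (adjusted p = 0.452). Above 150 it was 2.53 (adjusted p = 2.16e-05) and 2.59 (adjusted p = 0.00191). The interaction, 1.31 for Slc22a6 (adjusted p = 0.0489) and 1.61 for Slc22a8 (adjusted p = 0.0463), was 0.33 and 0.37 below 150 and 2.49 and 2.56 above it. For each gene 13 of the 16 libraries, left out singly, ended the interaction call, with adjusted p up to 0.104 for Slc22a6 and 0.0896 for Slc22a8. Among the tested members 14, or 41.2%, were higher in both lower-numbered FAN ad libitum libraries than in both higher-numbered ones, against 32.7% of all genes, and 3 members, or 8.82%, were lower, against 30.3% of all genes.

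**Figure D2:**
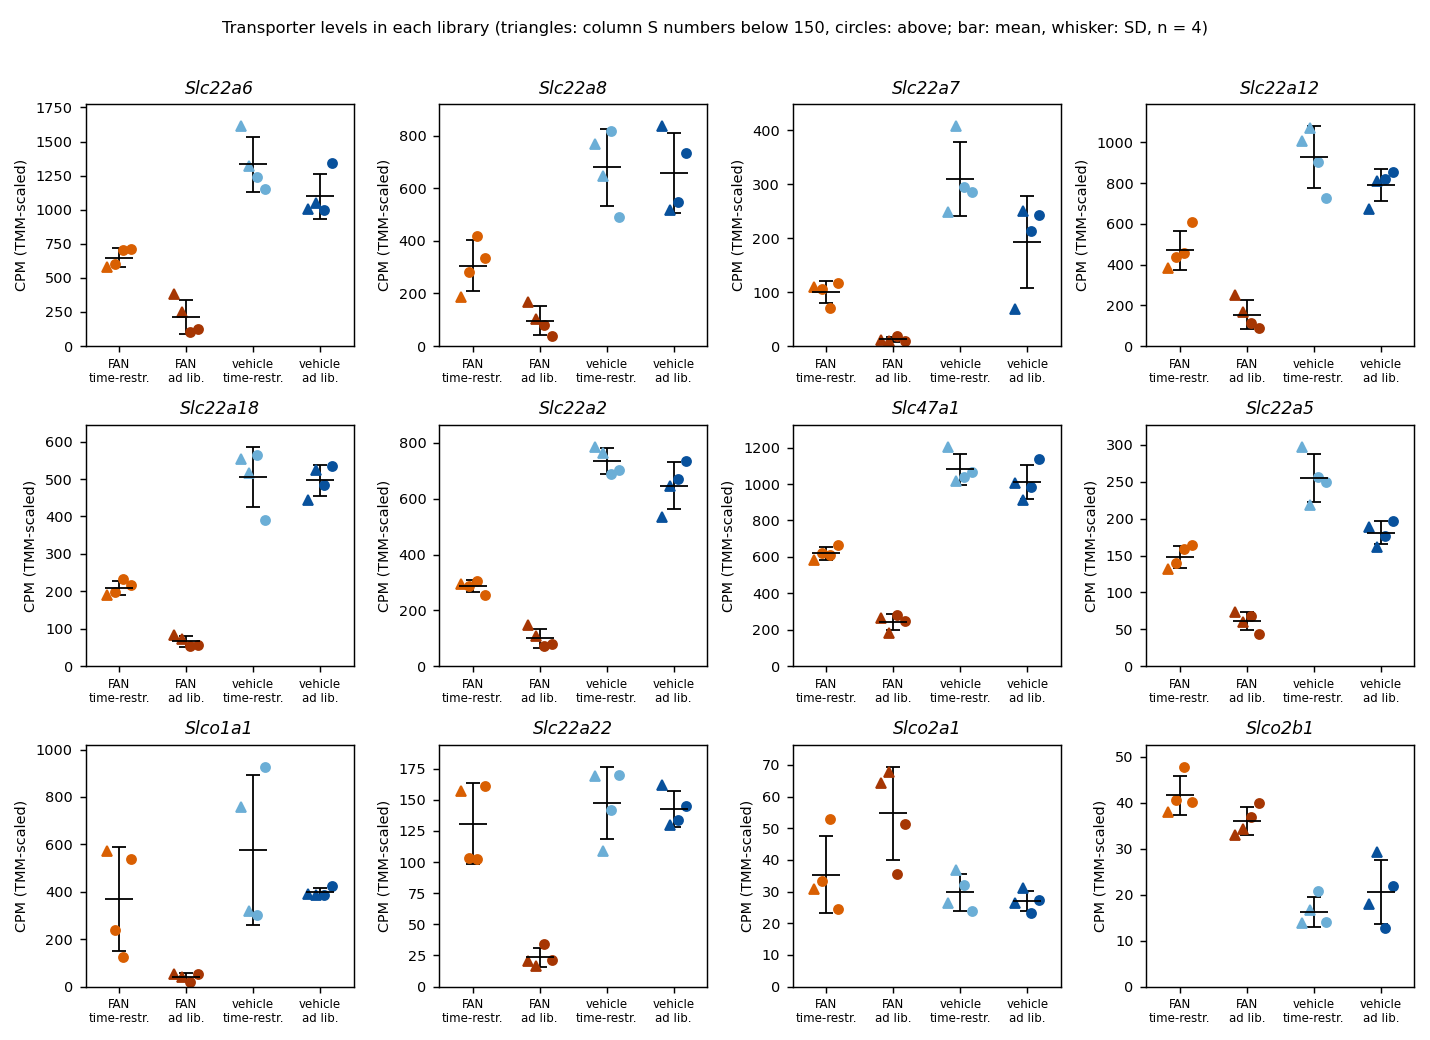
Level of 12 members in each library (CPM, TMM-scaled, linear axes from 0) for FAN time-restricted, FAN ad libitum, vehicle time-restricted and vehicle ad libitum kidneys; bars are means and whiskers SD of 4 libraries, triangles have S numbers below 150 and circles above. In the panel of Slc22a6 the FAN ad libitum triangles, at 379.6 and 248.2, lie above the circles, at 105.9 and 127.6, and in those of Slco2a1 and Slco2b1 FAN ad libitum libraries lie above vehicle ad libitum ones.

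Slc22a7 (OAT2, chr17:46432183-46438457), a carrier of cGMP and other anions, had the largest fall of all tested members under ad libitum feeding. It was at 110.1, 105.7, 71.2 and 116.5 CPM in FAN time-restricted and 11.21, 10.11, 18.65 and 8.819 CPM in FAN ad libitum libraries. Vehicle libraries held 248.5, 406.9, 295.4 and 286 CPM under time restriction and 67.78, 249.8, 212.8 and 242.1 CPM ad libitum, where the first library was low. FAN ad libitum kidneys kept 6.29% of the vehicle level and FAN time-restricted kidneys 32.6%. These are log2 -3.99 ± 0.36 (adjusted p = 8.09e-08) and log2 -1.62 ± 0.33 (adjusted p = 0.000811). Feeding in FAN mice was log2 3.05 ± 0.35 (adjusted p = 7.47e-06), with no overlap between the groups, and the interaction was log2 2.37 ± 0.46 (adjusted p = 0.0035). Below an S number of 150 the interaction was 2.29 with an adjusted p of 0.244, and above it was 2.49 with 0.0117.

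Apical urate and related carriers also fell. Slc22a12 (URAT1, chr19:6535845-6543032) reabsorbs urate. Its libraries had 381.1, 435.2, 456.3 and 607.7 CPM in FAN time-restricted, 248.5, 168.8, 113.7 and 87.91 CPM in FAN ad libitum, 1007, 1072, 904 and 727.7 CPM in vehicle time-restricted and 674.9, 812, 818.9 and 854.9 CPM in vehicle ad libitum kidneys. FAN and vehicle did not overlap in either regimen, at log2 -0.98 ± 0.24 (adjusted p = 0.00347) under time restriction and log2 -2.35 ± 0.25 (adjusted p = 3.14e-07) ad libitum. Its exons share 30.1% of their bases with Nrxn2 on the opposite strand, and the counting setting for strand is not given in the sources used here. The interaction of 1.37 (adjusted p = 0.0167) was 0.35 below an S number of 150 (adjusted p = 0.535) and 2.35 above it (adjusted p = 0.00152). Slc22a13 (OAT10) carries nicotinate and urate in human. It was at 26.62, 26.25, 23.81 and 31.32 CPM in FAN time-restricted and 13.24, 9.066, 11.47 and 7.607 CPM in FAN ad libitum libraries, against 50.77, 112.1, 98.32 and 56.7 CPM in vehicle time-restricted and 59.55, 98.57, 76.61 and 94.8 CPM in vehicle ad libitum libraries. No FAN library reached a vehicle library of its regimen, at log2 -1.56 ± 0.24 (adjusted p = 5.4e-05) under time restriction and log2 -2.99 ± 0.25 (adjusted p = 2.03e-08) ad libitum, and 36.0% of its 50-base windows also occur in Slc22a13b-ps.

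The organic anion transporters of the chromosome 19 cluster fell under ad libitum feeding. Slc22a19, Slc22a26, Slc22a27, Slc22a28, Slc22a29 and Slc22a30 lie with Slc22a8 and Slc22a6 within chr19:7673061-8628299. Slc22a19 (Oat5), which carries sulfated steroids, was at 100.7, 61.9, 43.03 and 74.9 CPM in FAN time-restricted and 8.985, 9.866, 26.37 and 7.659 CPM in FAN ad libitum libraries. It had 97.6, 161, 135.9 and 114.4 CPM in vehicle time-restricted and 55.85, 145.5, 152.5 and 153.8 CPM in vehicle ad libitum libraries. FAN ad libitum libraries all lay below vehicle ones, at log2 -3.28 ± 0.43 (adjusted p = 8.26e-06), while under time restriction the groups overlapped and the change did not pass, at log2 -0.86 ± 0.39 (adjusted p = 0.0901). When library 10 of FAN ad libitum or library 1 of vehicle ad libitum, which enter the shared spread, was left out, that comparison passed with adjusted p of 0.0270 and 0.0494. Slc22a26 had 28.91, 16.4, 10.85 and 20.91 CPM in FAN time-restricted, 2.409, 2.933, 6.387 and 1.96 CPM in FAN ad libitum, 36.12, 57.74, 50.06 and 45.3 CPM in vehicle time-restricted and 12.7, 37.37, 54.65 and 42.38 CPM in vehicle ad libitum libraries. It fell by 1.30 ± 0.42 (adjusted p = 0.0198) under time restriction and 3.46 ± 0.46 (adjusted p = 9.55e-06) ad libitum. Leaving out FAN time-restricted 10 raised the first adjusted p to 0.0540, and 11 of 16 libraries left out singly ended its interaction call of 2.16, with adjusted p up to 0.0828.

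Slc22a28 and Slc22a30 share sequence, 53.9% of the 50-base windows of the first and 36.2% of those of the second occurring elsewhere, mostly in each other, so their split of reads is uncertain. Slc22a28 had 157.7, 82.19, 87.51 and 125.4 CPM in FAN time-restricted and 24.09, 17.99, 32.29 and 22.44 CPM in FAN ad libitum libraries, against 201.5, 142.7, 176.8 and 209.1 CPM in vehicle time-restricted and 178.3, 156, 187.2 and 194.5 CPM in vehicle ad libitum libraries. Slc22a30 had 234.7, 124.6, 112.1 and 200.1 CPM in FAN time-restricted and 38.1, 30.64, 36.9 and 27.72 CPM in FAN ad libitum libraries, against 358.2, 256, 281.4 and 408.7 CPM in vehicle time-restricted and 288.2, 257.7, 264 and 292 CPM in vehicle ad libitum libraries. Both were lower in all FAN ad libitum libraries than in any vehicle one, and for Slc22a28 the time-restricted groups overlapped. Slc22a28 fell by 2.89 ± 0.21 (adjusted p = 3.22e-09) ad libitum and 0.69 ± 0.20 (adjusted p = 0.00943) under time restriction, and Slc22a30 by 3.05 ± 0.22 (adjusted p = 2.61e-09) and 0.96 ± 0.21 (adjusted p = 0.00111). Below an S number of 150 neither time-restricted fall passed, with adjusted p of 0.623 and 0.208. The interaction was log2 2.20 ± 0.28 (adjusted p = 0.000103) for Slc22a28 and log2 2.09 ± 0.29 (adjusted p = 0.000206) for Slc22a30, and it passed on both sides of that number. The rarer Slc22a27 and Slc22a29 averaged 0.0366 and 0.165 CPM in FAN ad libitum against 0.452 and 0.861 CPM in vehicle ad libitum kidneys. The test called both lower, but Slc22a27, with at most 17 counts in a library, entered it through vehicle libraries and so had to differ. Of the 50-base windows of Slc22a27 30.5% occur elsewhere, as do 30.5% of those of Slc22a29, mostly in each other.

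Prostaglandin carriers moved in opposite directions. Slc22a22 (OAT-PG, chr15:57243767-57477625) takes prostaglandins up in mouse kidney. It had 157.3, 102.97, 102.5 and 160.9 CPM in FAN time-restricted and 20.86, 16.72, 34.34 and 21.4 CPM in FAN ad libitum libraries, against 169.1, 108.8, 141.8 and 170.1 CPM in vehicle time-restricted and 161.8, 129.6, 133.8 and 145.3 CPM in vehicle ad libitum libraries. Every FAN ad libitum library was below every other library, while FAN and vehicle overlapped under time restriction. It fell by 2.62 ± 0.22 (adjusted p = 1.52e-08) ad libitum, was at log2 -0.17 ± 0.21 (adjusted p = 0.528) under time restriction, and had an interaction of log2 2.44 ± 0.30 (adjusted p = 7.52e-05), which also passed on either side of an S number of 150. Slco2a1 (PGT, chr9:102988712-103096002), a prostaglandin uptake carrier of many cell types, had 30.9, 33.42, 52.89 and 24.35 CPM in FAN time-restricted and 64.32, 67.81, 35.52 and 51.29 CPM in FAN ad libitum libraries. Vehicle libraries had 26.38, 36.86, 32.07 and 23.87 CPM under time restriction and 26.35, 31.09, 23.35 and 27.18 CPM ad libitum. Ad libitum, all FAN libraries were above all vehicle ones, at log2 1.02 ± 0.22 (adjusted p = 0.000671), though above an S number of 150 the log2 change was 0.78 (adjusted p = 0.0753). Under time restriction the groups overlapped, at log2 0.25 ± 0.22 (adjusted p = 0.385). The lower level in FAN time-restricted than FAN ad libitum kidneys, log2 -0.63 ± 0.22 (adjusted p = 0.0376), was lost without FAN time-restricted 6, 10 or 12 or FAN ad libitum 6 or 7, with adjusted p of 0.0871 to 0.126.

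The main basolateral organic cation transporter fell in both regimens. Slc22a2 (OCT2, chr17:12584132-12628488), the renal uptake route for cations such as metformin, had 295.3, 287.1, 305.8 and 256.7 CPM in FAN time-restricted and 146.7, 106.7, 71.91 and 78.5 CPM in FAN ad libitum libraries, against 786.1, 762.7, 689.4 and 701.6 CPM in vehicle time-restricted and 533.3, 644.9, 669.8 and 736.1 CPM in vehicle ad libitum libraries. The 4 groups of Slc22a2 fell into FAN ad libitum lowest, FAN time-restricted next and both vehicle groups above. It fell by 2.68 ± 0.19 (adjusted p = 2.07e-09) ad libitum and 1.36 ± 0.18 (adjusted p = 1.16e-05) under time restriction. Slc22a3 (OCT3), beside it on chromosome 17, averaged 0.169 CPM in FAN time-restricted, 0.481 CPM in FAN ad libitum, 0.356 CPM in vehicle time-restricted and 0.838 CPM in vehicle ad libitum kidneys and passed in no comparison.

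Slc47a1 (MATE1, chr11:61343401-61378345), the apical exit for the same cations, also fell in both regimens. It was at 581.8, 621.5, 608.8 and 666.4 CPM in FAN time-restricted and 266.1, 180.4, 281.7 and 250.7 CPM in FAN ad libitum libraries, against 1205, 1016, 1038 and 1067 CPM in vehicle time-restricted and 1003, 912.3, 984.8 and 1137 CPM in vehicle ad libitum libraries. FAN groups did not overlap with vehicle or with each other. It fell by 2.04 ± 0.14 (adjusted p = 1.89e-09) ad libitum and 0.80 ± 0.14 (adjusted p = 0.000168) under time restriction, and the interaction was log2 1.24 ± 0.20 (adjusted p = 0.000576). That of Slc22a2 was log2 1.32 ± 0.25 (adjusted p = 0.00278). Slc47a2 (MATE2) averaged 0.182 CPM in FAN ad libitum against 0.570 CPM in vehicle ad libitum kidneys and fell, at log2 -1.52 ± 0.46 (adjusted p = 0.00763). Its FAN libraries alone would not have passed the filter on low counts, and the call was lost with scaling by total counts, at log2 -0.82 (adjusted p = 0.122), and below an S number of 150, at log2 -0.86 (adjusted p = 0.250).

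Carnitine and zwitterion carriers gave a mixed picture. Slc22a5 (OCTN2, chr11:53864542-53891660) reclaims carnitine, which fatty acid oxidation needs. It had 131.9, 140.2, 158.5 and 163.8 CPM in FAN time-restricted and 72.99, 60.36, 68.4 and 43.79 CPM in FAN ad libitum libraries, against 297.6, 219.1, 255.9 and 249.1 CPM in vehicle time-restricted and 188.4, 161.3, 177.1 and 196.7 CPM in vehicle ad libitum libraries. FAN libraries lay below vehicle libraries of the same regimen, and vehicle time-restricted libraries lay above all others. It fell by 1.56 ± 0.15 (adjusted p = 6.78e-08) ad libitum and 0.78 ± 0.15 (adjusted p = 0.000322) under time restriction, and feeding in vehicle mice was log2 0.50 ± 0.15 (adjusted p = 0.465). Its interaction of 0.78 (adjusted p = 0.0228) was lost without FAN time-restricted 12, vehicle time-restricted 2 or vehicle ad libitum 4, with adjusted p of 0.0515 to 0.0527. The call was also lost with scaling by total counts, at log2 0.19 (adjusted p = 0.452), and with a replicate block, at log2 0.77 (adjusted p = 0.116). The lower S numbers alone gave a log2 interaction of 0.39. Under the other alternatives that fit an interaction the call held. Slc22a4 (OCTN1), an ergothioneine carrier, had 34.2, 28.21, 31.63 and 45.72 CPM in FAN time-restricted, 21.28, 20.55, 13.92 and 15.6 CPM in FAN ad libitum, 77.53, 74.72, 72.15 and 92.71 CPM in vehicle time-restricted and 77.29, 74.1, 71.96 and 73.79 CPM in vehicle ad libitum libraries. FAN libraries were below vehicle ones throughout, at log2 -2.05 ± 0.16 (adjusted p = 4.66e-09) ad libitum and log2 -1.19 ± 0.15 (adjusted p = 8e-06) under time restriction. Between the 2 genes lies Slc22a21 (Octn3), which shares 24.1% of its 50-base windows and averaged 4.75 CPM in FAN time-restricted, 5.23 CPM in FAN ad libitum, 7.48 CPM in vehicle time-restricted and 6.36 CPM in vehicle ad libitum kidneys. It fell under time restriction, log2 -0.66 ± 0.19 (adjusted p = 0.0105), and did not pass ad libitum, log2 -0.28 ± 0.19 (adjusted p = 0.213).

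Slc22a15 (FLIPT1), a carrier of zwitterions in human, was the 1 Slc22 gene that rose. It had 5.72, 6.605, 6.012 and 5.575 CPM in FAN time-restricted and 10.62, 10.05, 9.265 and 8.175 CPM in FAN ad libitum libraries, against 1.736, 4.076, 2.834 and 2.363 CPM in vehicle time-restricted and 2.319, 4.206, 5.322 and 2.144 CPM in vehicle ad libitum libraries. FAN and vehicle did not overlap in either regimen, at log2 1.44 ± 0.27 (adjusted p = 0.000151) ad libitum and log2 1.11 ± 0.28 (adjusted p = 0.00349) under time restriction. Below an S number of 150 the time-restricted change was 0.90 with an adjusted p of 0.231.

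Other Slc22 genes included the imprinted Slc22a18 (chr7:143473736-143499334). It had 189.3, 197.1, 232.2 and 217.3 CPM in FAN time-restricted and 82.56, 72.81, 53.14 and 56.76 CPM in FAN ad libitum libraries, against 554.4, 515.6, 564.3 and 389.3 CPM in vehicle time-restricted and 444.5, 523.8, 483.7 and 534.6 CPM in vehicle ad libitum libraries. The FAN groups were apart from vehicle and from each other, at log2 -2.90 ± 0.16 (adjusted p = 2.27e-10) ad libitum, log2 -1.28 ± 0.15 (adjusted p = 3.95e-06) under time restriction and log2 1.63 ± 0.22 (adjusted p = 0.000126) for the interaction. Slc22a14 fell in both regimens at under 3 CPM in every library. Slc22a17, the lipocalin-2 receptor, averaged 16.37 CPM in FAN time-restricted, 18.87 CPM in FAN ad libitum, 26.09 CPM in vehicle time-restricted and 24.49 CPM in vehicle ad libitum kidneys. Slc22a23 averaged 27.48 CPM in FAN time-restricted, 26.65 CPM in FAN ad libitum, 38.56 CPM in vehicle time-restricted and 36.87 CPM in vehicle ad libitum kidneys. Both fell in both regimens with TMM scaling, by at most 0.67 on the log2 scale, and ad libitum their signs turned to 0.33 and 0.24, not passed, with scaling by total counts. The ad libitum call of Slc22a17 was lost when FAN library 10 or vehicle library 4 of that regimen was left out, with adjusted p of 0.0720 and 0.0636. That of Slc22a23 was lost when FAN library 10 or 12 or vehicle library 1 of that regimen was left out, with adjusted p up to 0.0811, and its time-restricted call was lost without FAN time-restricted 10 or vehicle time-restricted 1 or 3, with adjusted p up to 0.0935.

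Among the OATPs, the abundant Slco1a1 and Slco1a6 fell ad libitum and overlapped with vehicle under time restriction. Slco1a1 (Oatp1a1, chr6:141907282-141946962), an apical carrier of steroid conjugates in mouse kidney, had 573, 238.5, 126.6 and 539.3 CPM in FAN time-restricted and 51.42, 40.49, 21.05 and 51.47 CPM in FAN ad libitum libraries. It had 759.3, 317.2, 301.5 and 927 CPM in vehicle time-restricted and 391.3, 386.4, 386.6 and 425.7 CPM in vehicle ad libitum libraries. The spread between libraries was wide in both time-restricted groups and narrow in vehicle ad libitum kidneys. It fell by 3.27 ± 0.49 (adjusted p = 3.3e-05) ad libitum and was at log2 -0.64 ± 0.45 (adjusted p = 0.269) under time restriction, with an interaction of log2 2.63 ± 0.65 (adjusted p = 0.0183). The interaction above an S number of 150 was 2.45 with an adjusted p of 0.351. Slco1a6 had 252, 206.9, 204.5 and 322.4 CPM in FAN time-restricted and 62.06, 45.39, 70.02 and 49.2 CPM in FAN ad libitum libraries, against 322.8, 157.8, 232.3 and 306.9 CPM in vehicle time-restricted and 241.4, 178, 188.1 and 211.5 CPM in vehicle ad libitum libraries. It fell by 1.85 ± 0.21 (adjusted p = 6.87e-07) ad libitum, was at log2 -0.05 ± 0.21 (adjusted p = 0.867) under time restriction, and had an interaction of log2 1.80 ± 0.30 (adjusted p = 0.000705). The rare Slco1a4 averaged 2.67 CPM in FAN time-restricted and 1.12 CPM in FAN ad libitum kidneys, log2 1.21 ± 0.34 (adjusted p = 0.0112), and passed in neither FAN comparison. That call was lost with scaling by total counts, at log2 0.54 (adjusted p = 0.165), and on either side of an S number of 150, with adjusted p of 0.0654 below and 0.0992 above.

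Slco4c1 and Slco3a1 had different patterns. Slco4c1, a basolateral carrier of digoxin and uremic toxins in rat and human, had 40.51, 33.24, 17.53 and 40.79 CPM in FAN time-restricted and 8.964, 7.261, 21.41 and 13.9 CPM in FAN ad libitum libraries. Vehicle libraries had 23.84, 36.61, 37.92 and 30.88 CPM under time restriction and 44.12, 54.89, 46.26 and 50.84 CPM ad libitum, the time-restricted ones all lower. It fell by 1.94 ± 0.30 (adjusted p = 2.83e-05) ad libitum, was at log2 0.03 ± 0.29 (adjusted p = 0.951) under time restriction, and had an interaction of log2 1.96 ± 0.41 (adjusted p = 0.00611). Feeding in vehicle mice, log2 -0.60 ± 0.29 (adjusted p = 0.779), did not pass although time-restricted libraries were all lower. Members without overlap between vehicle groups were Slco4c1, lower, and Slc22a5, higher, where 355 of 17731 genes were lower, 2.85% higher and 4.85% either. Slco3a1, which is expressed in many tissues, had 195.6, 171.6, 188.2 and 205.5 CPM in FAN time-restricted, 125.6, 114.9, 108.8 and 121.2 CPM in FAN ad libitum, 282.7, 272.7, 272.6 and 288.6 CPM in vehicle time-restricted and 251.1, 293, 267.4 and 335.9 CPM in vehicle ad libitum libraries. FAN and vehicle were apart in both regimens, at log2 -1.29 ± 0.11 (adjusted p = 2.18e-08) ad libitum and log2 -0.55 ± 0.11 (adjusted p = 0.000567) under time restriction. Slco4a1, a thyroid hormone carrier, ranged from 11.98 to 21.74 CPM in FAN time-restricted, 21.33 to 29.68 CPM in FAN ad libitum, 9.02 to 45.12 CPM in vehicle time-restricted and 18.62 to 73.16 CPM in vehicle ad libitum libraries and passed in no comparison.

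The rising OATPs were Slco2a1, described above, and Slco2b1, beside Slco5a1, which was seen almost solely in FAN libraries. Slco2b1, a carrier of steroid sulfates, had 37.98, 40.68, 47.78 and 40.05 CPM in FAN time-restricted and 32.92, 34.25, 36.98 and 39.92 CPM in FAN ad libitum libraries, against 13.8, 16.55, 20.69 and 14.01 CPM in vehicle time-restricted and 18.01, 29.34, 12.75 and 21.95 CPM in vehicle ad libitum libraries. FAN libraries were above vehicle ones in each regimen, at log2 1.35 ± 0.19 (adjusted p = 2.38e-05) under time restriction and log2 0.81 ± 0.19 (adjusted p = 0.00125) ad libitum. Below an S number of 150 the ad libitum change was 0.47 with an adjusted p of 0.107. Slco5a1, a gene of unknown substrate, entered the test through FAN libraries and so had to differ, and its calls support nothing. It had 54, 46, 62 and 4 counts in FAN time-restricted and 131, 187, 34 and 117 counts in FAN ad libitum libraries, against 0, 0, 2 and 0 counts in vehicle time-restricted and 0, 4, 5 and 0 counts in vehicle ad libitum libraries. Slco2a1 and Slco2b1 rose in kidneys where macrophage and fibroblast markers rose too, whose part was not tested.

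**Figure D3:**
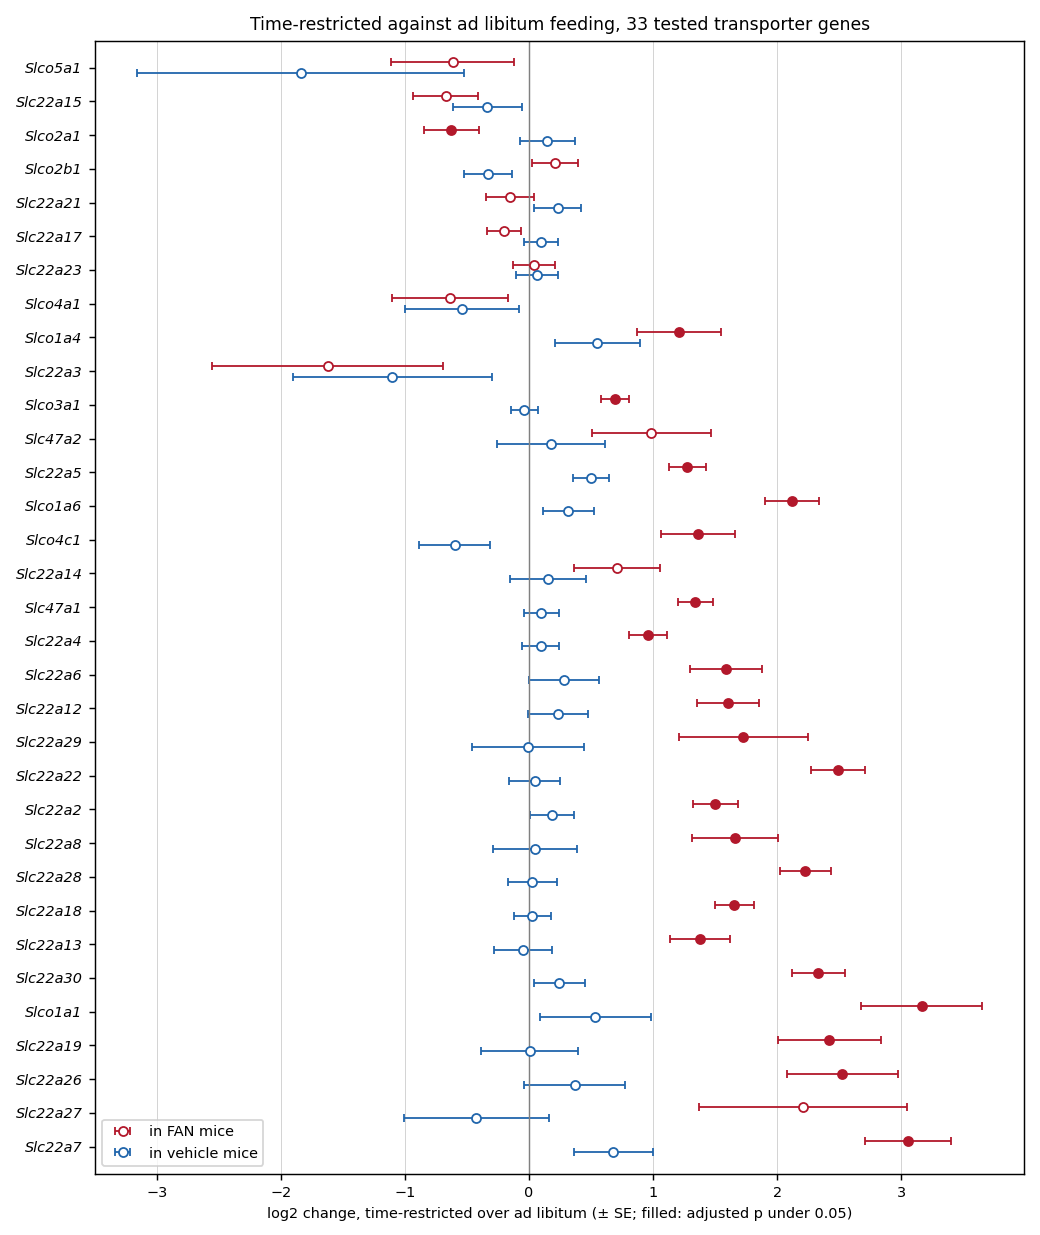
Log2 difference of 33 of the 34 tested members, time-restricted over ad libitum feeding, in FAN mice (red) and in vehicle mice (blue), with standard errors, in the gene order of the plot of FAN changes; filled points passed an adjusted p of 0.05. Red points are filled for 22 genes, 21 to the right of 0 and Slco2a1 to the left, and no blue point is filled.

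Promoters were compared in the 300 bases from 250 before to 50 after the RefSeq start (GRCm38.p6), found for 36 of 42 members. Printed are a pair of falling genes from the chromosome 19 cluster, OAT1 and OAT3 as the main renal carriers, and a pair that rose, each 5′ to 3′ on the gene's strand, with CG dinucleotides in capitals.
Slc22a26, chr19:7802618-7802917, minus strand: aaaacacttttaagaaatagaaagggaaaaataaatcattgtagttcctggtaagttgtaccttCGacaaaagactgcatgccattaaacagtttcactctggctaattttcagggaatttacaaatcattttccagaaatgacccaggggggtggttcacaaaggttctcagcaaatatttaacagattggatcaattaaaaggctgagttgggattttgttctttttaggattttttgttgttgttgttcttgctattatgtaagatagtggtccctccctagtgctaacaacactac
Slc22a19, chr19:7711261-7711560, minus strand: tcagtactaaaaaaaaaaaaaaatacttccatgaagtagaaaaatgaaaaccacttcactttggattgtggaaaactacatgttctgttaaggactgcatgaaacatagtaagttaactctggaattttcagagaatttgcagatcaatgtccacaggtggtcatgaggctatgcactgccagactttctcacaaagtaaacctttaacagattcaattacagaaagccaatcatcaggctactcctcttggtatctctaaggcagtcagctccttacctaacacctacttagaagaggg
Slc22a6, chr19:8617746-8618045, plus strand: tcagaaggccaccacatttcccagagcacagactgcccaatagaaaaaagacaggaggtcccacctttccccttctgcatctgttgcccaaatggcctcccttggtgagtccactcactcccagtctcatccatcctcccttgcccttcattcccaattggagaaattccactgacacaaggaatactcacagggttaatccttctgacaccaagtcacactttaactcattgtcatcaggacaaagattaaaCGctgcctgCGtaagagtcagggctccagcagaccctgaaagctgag
Slc22a8, chr19:8592932-8593231, plus strand: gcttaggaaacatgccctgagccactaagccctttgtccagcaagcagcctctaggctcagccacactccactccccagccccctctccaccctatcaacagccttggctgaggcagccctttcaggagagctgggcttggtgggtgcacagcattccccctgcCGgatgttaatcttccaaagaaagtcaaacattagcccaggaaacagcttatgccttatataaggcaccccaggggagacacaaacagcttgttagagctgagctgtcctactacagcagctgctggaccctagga
Slc22a15, chr3:101924404-101924703, minus strand: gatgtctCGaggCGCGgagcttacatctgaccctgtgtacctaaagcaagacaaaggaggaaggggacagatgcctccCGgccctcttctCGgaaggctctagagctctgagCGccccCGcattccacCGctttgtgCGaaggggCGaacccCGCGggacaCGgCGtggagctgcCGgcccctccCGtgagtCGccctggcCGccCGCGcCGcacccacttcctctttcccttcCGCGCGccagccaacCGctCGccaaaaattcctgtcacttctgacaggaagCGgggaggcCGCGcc
Slco2a1, chr9:103008237-103008536, plus strand: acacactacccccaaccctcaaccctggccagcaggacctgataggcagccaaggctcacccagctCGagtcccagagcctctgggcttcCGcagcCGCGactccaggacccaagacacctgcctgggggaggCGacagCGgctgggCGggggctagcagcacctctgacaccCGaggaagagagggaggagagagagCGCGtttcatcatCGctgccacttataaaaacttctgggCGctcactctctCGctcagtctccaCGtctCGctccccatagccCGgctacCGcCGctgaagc

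The windows of Slc22a26 and Slc22a19, genes that FAN ad libitum kidneys kept at 9.11% and 10.3% of the vehicle level, hold 1 and 0 CG dinucleotides. Those of Slc22a15 and Slco2a1, which rose, hold 29 and 18. The window of Slco2a1 starts from a RefSeq start 19775 bases from the GENCODE gene start, and that of Slc22a8 from one 1928 bases away. Over the 22 members with a window that fell ad libitum the median was 2 CG, with a range of 0 to 38. Over the 3 that rose it was 18, with 5 to 29. Over all 36 members with a window, tested or not, it was 3.5, and over all 27025 promoters it was 7. Falling members with more CG than the 18 of Slco2a1 were Slco4c1 with 21, Slc47a2 with 23, Slc22a4 with 29, Slc22a5 with 34 and Slc22a23 with 38. The HNF4-type motif CAAAGTCC, read on both strands, was in 1 of 36 members, or 2.78%, and in 1.44% of all promoters. It was in 0 of the 22 members that fell ad libitum and in 0 of the 3 that rose. A match describes the window and not a site of binding.

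**Figure D4:**
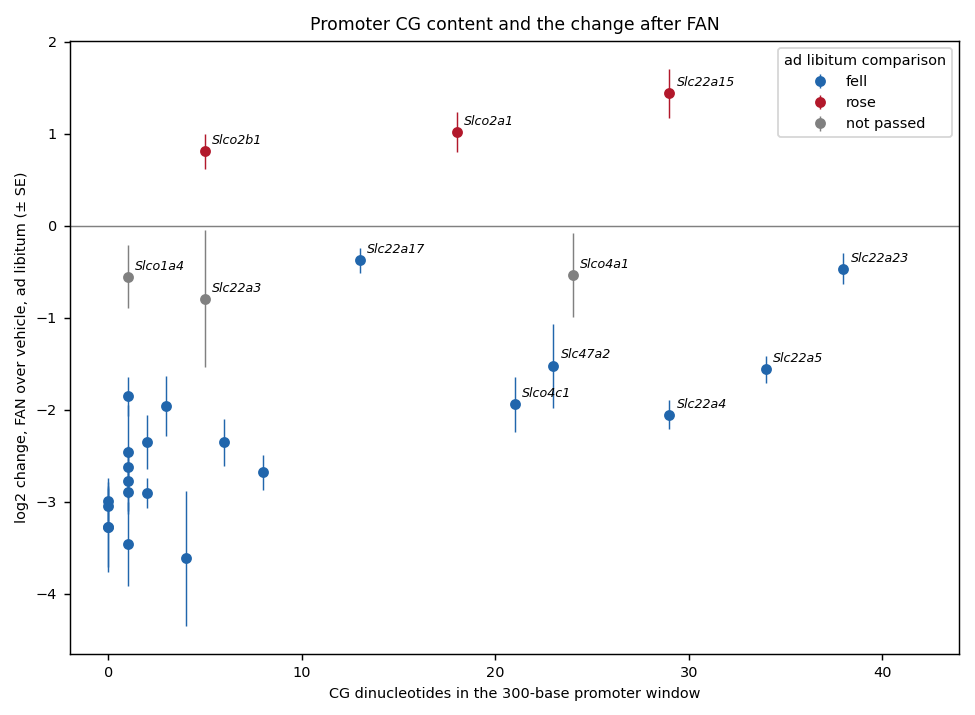
CG dinucleotides in the 300-base promoter window of each tested member with a window (x) against its log2 change, FAN over vehicle, under ad libitum feeding (y, with standard error); blue members fell, red members rose and grey ones did not pass. At 8 CG or fewer stand 72.7% of falling members with a window and 53.8% of all promoters, while Slc22a4, Slc22a5, Slc22a23, Slc22a17, Slc47a2 and Slco4c1 fell with more, and the 3 red points range from 5 to 29.

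Genes that work beside these transporters were counted from fixed lists. Of 23 tested partner transporters, 18 fell, 1 rose and 4 did not pass with FAN ad libitum. Under time restriction 11 fell, 1 rose and 11 did not pass. Of all genes, 28.6% fell and 32.1% rose ad libitum, and 19.0% fell and 24.5% rose under time restriction. Slc17a3, an apical urate and anion exit, averaged 611.4 CPM in FAN time-restricted and 178.2 CPM in FAN ad libitum kidneys, against 993.5 CPM in vehicle time-restricted and 846.8 CPM in vehicle ad libitum kidneys. It fell ad libitum, log2 -2.25 ± 0.17 (adjusted p = 5.5e-09). Slc51b, the beta subunit of the basolateral bile acid transporter, fell to 14.37 CPM in FAN ad libitum, against 53.65 CPM in vehicle ad libitum kidneys. Slc13a1, a sulfate carrier, was the 1 that rose, at 574.9 CPM in FAN time-restricted and 442 CPM in FAN ad libitum kidneys, against 272.2 CPM in vehicle time-restricted and 238 CPM in vehicle ad libitum kidneys. In FAN mice 16 of the 23 were higher with time restriction and 0 lower, where 17.9% of all genes were higher and 13.9% lower.

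Of 10 apical and basolateral ATP-driven efflux pumps, 4 fell, 3 rose and 3 did not pass with FAN ad libitum. In that comparison 28.6% of all genes fell, 32.1% rose and 60.7% were called. Abcc2 (MRP2) averaged 212 CPM in FAN time-restricted and 119.8 CPM in FAN ad libitum kidneys, against 371.7 CPM in vehicle time-restricted and 319.3 CPM in vehicle ad libitum kidneys, and fell in both regimens. Abcg2 (BCRP), a urate and drug pump, fell ad libitum, log2 -1.06 ± 0.17 (adjusted p = 2.93e-05), and did not pass under time restriction, log2 -0.04 ± 0.17 (adjusted p = 0.875). Abcc3 (MRP3) rose ad libitum, log2 1.76 ± 0.37 (adjusted p = 0.000553). Among 23 tested regulators of transcription, 9 fell, 6 rose and 8 did not pass ad libitum, to be read against the same shares of all genes. Hnf4a, a regulator of proximal tubule genes, averaged 372.8 CPM in FAN time-restricted and 177.1 CPM in FAN ad libitum kidneys, against 660.2 CPM in vehicle time-restricted and 696.4 CPM in vehicle ad libitum kidneys. It fell by 1.98 ± 0.16 (adjusted p = 9.46e-09) ad libitum and 0.82 ± 0.16 (adjusted p = 0.000349) under time restriction.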

How the data were processed

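RNA of 16 mouse kidneys was extracted with TRIzol from frozen powder and sequenced from stranded poly(A) libraries, per the labels' protocols. The authors deposited raw read counts per Ensembl gene in 1 table of 52338 genes. The submitters' processing notes list edgeR 3.26.7, FastQC 0.11.5, STAR 2.5.3a and, as the build, mm10. How reads were counted, and whether by strand, is not given in the sources used here, so reads of overlapping, antisense and near-identical genes may be mixed. FAN column numbers are not the numbers in the FAN sample titles, so FAN columns were mapped to their group alone, and a FAN library number names a column and no titled sample; vehicle columns matched sample titles. Libraries were grouped by the labels.

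The deposited counts went into edgeR 4.0.16 (R 4.3.3), with low genes removed by filterByExpr (minimum count 10, by group), TMM scaling, and 1 robust quasi-likelihood fit of the 4 groups and 16 libraries. Adjusted p are two-sided Benjamini-Hochberg values over 17731 genes, called below 0.05. Contrasts set FAN against vehicle in each regimen, feeding within FAN and within vehicle, and the interaction. SE were derived from the quasi-likelihood F statistic. The fit was tested on simulated data, and the outcome is not given here.

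Total counts of 12450812 to 33976660 set the precision, and counting intervals and floors of 3 counts cover counting error only. No 2 libraries of a group agreed within sampling noise, the lowest chi-square per gene being 18.43. Values in every library are printed for members with a mean of at least 5 CPM in a group and a call with a log2 change of at least 1. Other members are given by means, ranges or counts, and listed partner genes by counts and by members with the smallest p, beside a few chosen after their values were seen. A few genes that the counts include are not reported singly here. Members, lists and tests were chosen with earlier results of these data known. Exon lengths, overlaps, shared 50-base windows and coordinates came from GENCODE M21 on GRCm38 by identifier, since 2.81% of the starts in the table equal it. Promoters are RefSeq's. The rule was to print those of members with the largest calls each way ad libitum; Slc22a27, whose fall was larger than that of Slc22a26, is not printed; those of OAT1 and OAT3 took the place of Slco1a1 and Slco2b1 after the windows and values were seen, and marking CG was chosen then too. Alternatives were other scalings, no filter, DESeq2 1.42.0, the 2 groups alone, a replicate block, position terms and each library left out. The split at an S number of 150 was added after seeing the data. Figures were drawn with matplotlib 3.10.9.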

Additional observations from a re-analysis of the deposited data

Results flagged for a closer look

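Single libraries stood apart from the other 3 of their group by Dixon's ratio in 8 of 136 groups of a member, and chance gives about 1 in 20. Slc22a17 was low in FAN ad libitum 10, at 15.85 CPM where the others had 19.54 to 20.27, and in vehicle time-restricted 4, at 20.04 CPM where the others had 27.57 to 28.85. Slc22a19 was high in FAN ad libitum 10, at 26.37 CPM beside 7.659 to 9.866, and low in vehicle ad libitum 1, at 55.85 CPM beside 145.5 to 153.8. Slco4a1 was high in FAN ad libitum 7, at 29.68 CPM beside 21.33 to 22.62, and in vehicle ad libitum 3, at 73.16 CPM beside 18.62 to 24.01. In vehicle ad libitum 4, Slc22a6 had 1340 CPM beside 996.9 to 1052, and Slco1a1 had 425.7 CPM beside 386.4 to 391.3.

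The FAN effect differed between feeding regimens, by the interaction of edgeR's quasi-likelihood test, for 20 members, each with a higher FAN to vehicle ratio under time restriction. The log2 interaction was above 2 for Slco1a1 at 2.63, Slc22a22 at 2.44, Slc22a19 at 2.42, Slc22a7 at 2.37, Slc22a28 at 2.20, Slc22a26 at 2.16 and Slc22a30 at 2.09. Slco4c1 had 1.96, Slco1a6 1.80, Slc22a18 1.63, Slc22a8 1.61, Slc22a13 1.43, Slc22a12 1.37, Slc22a2 1.32, Slc22a6 1.31 and Slc47a1 1.24. Slc22a4 had 0.87, Slc22a5 0.78 and Slco3a1 0.73.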

How the results depend on the processing

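The counts of members called stayed within 1.5 times of 30, 22, 23, 0 and 20 under every alternative but the lower S numbers alone, which gave 13 for FAN under time restriction and 8 for the interaction with only 1 FAN time-restricted library left. Leaving out each of 16 libraries gave 28 to 30 for FAN ad libitum, 20 to 23 for FAN under time restriction, 21 to 24 for feeding in FAN, 0 to 0 for feeding in vehicle and 16 to 21 for the interaction. A like count can hold other members. With scaling by total counts, 27 of 30 calls remained for FAN ad libitum and 21 of 22 under time restriction. For feeding in FAN 19 of 23 remained, and for the interaction 13 of 20. Interactions of Slc22a4, Slc22a5, Slc22a6, Slc22a8, Slc22a12, Slc22a13 and Slco3a1 then did not pass, with adjusted p of 0.0634 to 0.527. Scaling by total counts reversed Slc22a17 (0.33) and Slc22a23 (0.24) for FAN ad libitum and Slc22a23 for feeding in FAN (-0.62). It also moved the share of higher among called genes to 83.9% from 52.8% for FAN ad libitum, 67.2% from 56.3% under time restriction, 8.61% from 56.4% for feeding in FAN and 7.6% from 84.7% for the interaction; the cause was not tested.

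Deviations of same-numbered libraries from their group means had correlations of -0.2501 to 0.1792, within the -0.2837 to 0.3250 of other pairs. These showed no pairing by number, but so few pairs cannot exclude one. With the replicate block, feeding in FAN called 22 members, in vehicle 0 and the interaction 14. FAN and vehicle share too few numbers for a block in the other comparisons, and the fit of 2 groups has no interaction. Over all genes, feeding in FAN called 3400 with the block and 5639 without it, the interaction 877 and 1625. Below about 0.1 CPM, changes were not detectable at this depth.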

Other observations

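Within the time-restricted groups, Slco1a1 and its chromosome 6 neighbour Slco1a4 were higher in FAN libraries 6 and 12 than in 10 and 11 and higher in vehicle libraries 1 and 4 than in 2 and 3. Slc22a22, Slc22a28, Slc22a30 and Slco1a6 had the same higher and lower libraries, so the pattern is not one of these neighbours alone. In FAN time-restricted 6, 10, 11 and 12 Slco1a1 had 573, 238.5, 126.6 and 539.3 CPM, and Slco1a4 had 3.346, 2.362, 1.257 and 3.717 CPM. In vehicle time-restricted 1 to 4 Slco1a1 had 759.3, 317.2, 301.5 and 927 CPM, and Slco1a4 had 3.176, 1.701, 1.529 and 3.503 CPM. The proximal tubule marker Kap had 47362, 36794, 38481 and 58520 CPM in these FAN libraries and 58374, 58056, 60309 and 60257 CPM in the vehicle ones. Slco1a1 and Slco1a4 share 2.26% and 2.73% of their 50-base windows with other genes. These values were chosen after they were seen, and no test was made.

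The glucose carrier Slc5a2 of the early proximal tubule was at 46.35 and 47.34 CPM in FAN ad libitum 6 and 7 and at 17.78 and 10.75 CPM in FAN ad libitum 10 and 12. Slc22a6 was likewise higher in libraries 6 and 7 than in 10 and 12.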
